A study of Mus musculus with 2 samples.

Results

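Chd4, Mta2, Mta3, Mbd3, Smarca4, Smarcc1, Arid1a, Chd1, Setdb1 and Trim28 encode 10 regulators of chromatin, and each was searched for NANOG binding sites, which were found near 9 of them and not near Chd4. They are 10 of 21486 mouse protein-coding genes with a known strand, of which 48.4% had a site by the same rule. The 10 were chosen by function, with earlier results of these data known. Of the 10, 4 encode subunits of the NuRD complex, 3 encode subunits of the BAF complex, and 3 act in chromatin opening or in heterochromatin. NANOG, a homeodomain transcription factor of pluripotent cells, was mapped by ChIP-seq, in which an antibody recovers the DNA fragments that a protein sits on. The cells were E14TG2a.4, established from a male 129/Ola mouse embryo as embryonic stem cells, with 3.5 day as the labelled age. There were 2 biological replicates of this 1 group, with no treatment or altered genotype in the labels. A control sample was not analysed here, so no comparison between conditions could be made, and the cell type could not be checked, since no expression was measured.

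A binding site was taken as the summit of a peak, its point of strongest signal, and was assigned to a gene when it lay in the gene body or within 50 kb of the transcription start site (TSS). Such a site need not act on that gene. The deposited optimal set held 15891 peaks on the mm10 build after a threshold on the irreproducible discovery rate (IDR). A stricter conservative set held 9431. A peak of the optimal set need not have a region in both replicates. Signal is the peak caller's own value per peak, on a scale the sources used here do not state, and ranks count from the highest signal of a list. A replicate supported a site when a region among its 15891 highest ranks overlapped the peak. The sets combine both replicates, so their values carry no replicate error. Sequencing depth is unknown.

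NuRD joins nucleosome remodelling to histone deacetylation, and in embryonic stem cells it is known to tune genes of pluripotency and to permit exit from that state. CHD4 is its remodelling ATPase, MTA2 and MTA3 are alternative scaffold proteins that hold the deacetylases, and MBD3 joins the remodelling and deacetylase portions. BAF slides and evicts nucleosomes to open regulatory DNA, with SMARCA4 (BRG1) as its ATPase, SMARCC1 (BAF155) as a core scaffold and ARID1A as a large subunit that defines canonical BAF. CHD1 is a remodeller that reads histone H3 methylated at lysine 4 and is known to keep stem cell chromatin open. SETDB1 places the repressive methylation of histone H3 at lysine 9, and TRIM28 (KAP1) is the corepressor through which KRAB zinc finger proteins bring SETDB1 to endogenous retroviruses.

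NANOG sites lay near 9 of the 10 genes and numbered 20. Chd4 was the gene with none. Over all protein-coding genes 48.4% had at least 1 site by the same rule, and 44.9% when only the 50 kb around the TSS counted, where the chromatin regulators again had 9 of 10. Mta3 had 6 sites and Chd1 had 5, while 2.55% of all genes had 5 or more. Smarcc1 and Trim28 had 2 sites each, and Mta2, Mbd3, Smarca4, Arid1a and Setdb1 had 1. These counts moved with the list used. Among the highest 15891 regions of replicate 1 alone, without replicate 2, Mta3 had 3 sites and so fell below 5, Chd1 had 6 and Trim28 had 4. In those of replicate 2 alone, without replicate 1, Mta3 had 6 and Chd1 had 4, while Smarcc1 had 4, Arid1a and Setdb1 had 3 each, and Mta2 and Smarca4 had 2 each. In the conservative set Mta3 and Chd1 had 4 each, so that neither reached 5, while Trim28 had 3 there against 2 in the optimal set. A long gene has a larger window and so more room for sites. Among genes whose body lay wholly within 50 kb of the TSS 43.7% had a site, against 4 of 5 here, and among longer genes 64.4% had one, against 5 of 5 (Mta3, Smarca4, Smarcc1, Arid1a and Chd1).

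**Figure D1:**
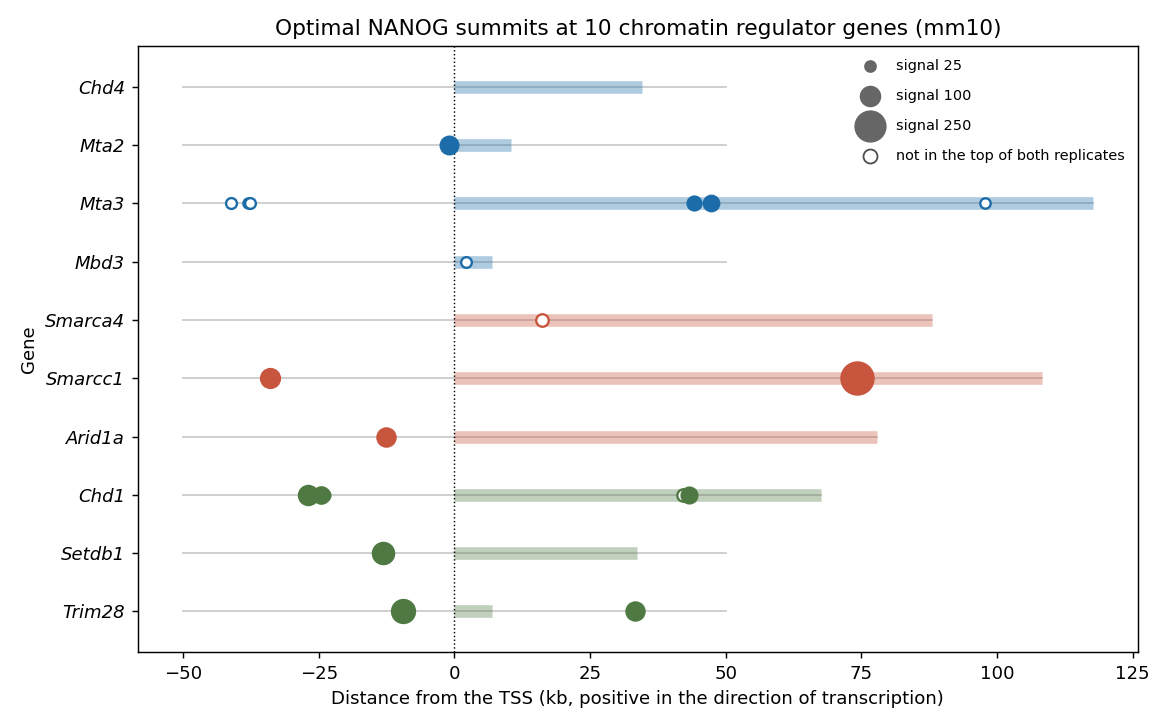
Position of each of the 20 optimal NANOG summits along the 10 genes, in kb from the gene's own TSS with upstream to the left; bars are gene bodies, grey lines are the windows searched, symbol size follows the signal, and open symbols lack support from 1 or both replicates. The strongest site lies 74.2 kb inside Smarcc1, Mta3 and Chd1 carry clusters, and the Chd4 line is empty.

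Sequences from 6 peaks near these genes are shown because they are the most enriched there, at most 1 per gene, in the deposited peak list of the whole series on the mm9 build. Each is the plus strand of the mm9 genome, 100 bp to either side of the peak midpoint, since that list gives no summits. A stretch need not hold the mm10 summit. At Trim28 the midpoint lay 9.64 kb upstream of the mm9 TSS and the summit 9.53 kb upstream of the mm10 TSS. Capitals mark a match to a word described further on, from which Smarcc1 and Mta2 carry a SOX word, Trim28 a KLF word and Arid1a an ESRRB word. Chd1 and Setdb1 carry no match in the stretch printed.
Smarcc1 chr9:110108598-110108798: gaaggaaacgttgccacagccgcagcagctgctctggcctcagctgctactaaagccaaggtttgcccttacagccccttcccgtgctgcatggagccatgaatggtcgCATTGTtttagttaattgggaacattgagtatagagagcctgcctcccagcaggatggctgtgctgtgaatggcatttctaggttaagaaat
Trim28 chr7:13599757-13599957: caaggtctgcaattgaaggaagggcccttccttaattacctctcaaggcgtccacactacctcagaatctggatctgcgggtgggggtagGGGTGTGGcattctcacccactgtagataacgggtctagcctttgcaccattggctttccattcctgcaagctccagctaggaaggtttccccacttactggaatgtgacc
Chd1 chr17:15814912-15815112: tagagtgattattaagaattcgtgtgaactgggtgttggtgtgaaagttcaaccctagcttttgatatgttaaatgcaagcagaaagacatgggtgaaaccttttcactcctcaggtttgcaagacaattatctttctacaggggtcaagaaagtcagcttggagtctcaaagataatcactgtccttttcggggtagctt
Setdb1 chr3:95174122-95174322: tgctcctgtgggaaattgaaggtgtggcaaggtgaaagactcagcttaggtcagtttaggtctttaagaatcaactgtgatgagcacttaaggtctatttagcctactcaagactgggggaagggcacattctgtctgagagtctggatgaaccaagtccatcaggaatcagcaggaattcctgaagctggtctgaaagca
Arid1a chr4:133325180-133325380: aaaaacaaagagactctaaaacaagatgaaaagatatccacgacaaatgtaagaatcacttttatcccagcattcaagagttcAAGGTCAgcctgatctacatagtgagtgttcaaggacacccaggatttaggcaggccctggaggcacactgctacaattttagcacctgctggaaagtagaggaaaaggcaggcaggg
Mta2 chr19:9015321-9015521: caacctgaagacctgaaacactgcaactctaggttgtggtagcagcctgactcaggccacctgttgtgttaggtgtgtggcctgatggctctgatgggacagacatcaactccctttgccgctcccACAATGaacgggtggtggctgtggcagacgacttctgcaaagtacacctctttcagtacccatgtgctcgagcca
The Smarcc1 stretch includes 60 coding bases of Smarcc1, and the Mta2 stretch includes 129 coding bases of its neighbour Eml3. The other 4 stretches hold no coding base.

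Among the NuRD genes, 8 sites lay near Mta2, Mta3 and Mbd3, with signals from 20.9 to 78.4 and a median of 24.4, below the median of 40.2 over the whole optimal set. Mta3 held 6 of the 8, so this median mostly describes Mta3. By highest signal per gene, Mta2 (78.4) and Mta3 (58.0) were above the median of 52.0 over all genes with a site. Mbd3 (23.7) was below it. The highest of the 8 signals was at Mta2. Its peak (chr19:8940734-8941097, mm10) had a signal of 78.4 and ranked 3240, and it ranked 4175 in replicate 1 and 1928 in replicate 2. The summit lay 1004 bp upstream of the Mta2 TSS, inside the adjoining gene Eml3, and no other of the 20 sites was nearer to a TSS of the 10 genes.

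Mta3 had the most sites, in an upstream group, a pair within the gene and a single site farther in. The pair, 3028 bp apart, was the stronger. Its second peak (chr17:83753249-83753612) lay 47.3 kb downstream of the TSS with a signal of 58.0 and ranked 5369 in replicate 1 and 2859 in replicate 2. Its first peak (chr17:83750221-83750584) had a signal of 45.2, with replicate ranks of 8607 and 5791. Both were conservative and supported by both replicates.

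The upstream sites of Mta3 were weak. They lay 41.3, 38.0 and 37.7 kb upstream of the TSS with signals of 24.7, 20.9 and 24.0, and the nearest TSS to all of them was that of Kcng3, a potassium channel subunit gene. The 2 peaks nearer to Mta3 overlap each other with summits 284 bp apart and may be 1 region. Both are in the conservative set, although the region beneath them ranked 16156 in replicate 1, past the limit for support, and 9516 in replicate 2. The outermost had support from replicate 1 alone, at rank 10323, with no overlapping region in the relaxed list of replicate 2.

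The last Mta3 site, 97.7 kb into the gene and nearest to the TSS of Haao, an enzyme gene of tryptophan breakdown, had a signal of 22.0. It ranked 26198 in replicate 1 and 33291 in replicate 2, and was the one site of the 20 that neither replicate supported. The single Mbd3 site (chr10:80397143-80397506), 2.21 kb inside the gene, was likewise weak. Its signal was 23.7, at rank 13359, with support from replicate 1 alone at rank 13340 and no overlapping region in replicate 2. Only 9.5% of all genes with a site had a lower highest signal than Mbd3.

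For Chd4 (chr6:125095980-125130591, mm10) no summit fell in the window in the optimal set, in the conservative set, or among the highest 15891 regions of either replicate or of the pool. The nearest optimal summit lay 56.2 kb upstream, just beyond the limit, with a signal of 22.6 and outside any protein-coding gene. In the relaxed lists of 300000 regions, which include background, the best region ranked 25621 in replicate 1 at 13.9 kb upstream. In replicate 2 the best ranked 15903, just past the limit, at 37.0 kb upstream. In the pool it ranked 47386 at 34.1 kb downstream. The 3 lists thus placed their best region at different positions. The Chd4 value in the pool was worse than the median best rank of 32028 over genes without a site, and 18.8% of all genes had a worse one.

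The BAF genes had 4 sites with signals from 35.5 to 279 and a median of 87.4. The strongest of all 20 sites was in Smarcc1 (chr9:110206071-110206399). It had a signal of 279, ranked 226 of 15891, and ranked 253 in replicate 1 and 205 in replicate 2. It lay 74.2 kb downstream of the Smarcc1 TSS, within the gene, but the nearest TSS was that of Cspg5, a brain proteoglycan gene, 37.6 kb away. Among genes with a site, 97.3% had a lower highest signal than Smarcc1. Its other site (chr9:110097907-110098048), 34.0 kb upstream and inside the RNA helicase gene Dhx30, had a signal of 91.3, and ranks of 2350 and 3491 in replicates 1 and 2.

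The Arid1a site (chr4:133769287-133769437) lay 12.6 kb upstream of the TSS, with a signal of 83.6 and ranks of 2795 in replicate 1 and 4740 in replicate 2. Just outside its window, 59.4 kb upstream of the TSS, the next optimal summit had a higher signal of 101. The Smarca4 site (chr9:21631996-21632359), 16.1 kb inside the gene, differed between replicates. Its signal was 35.5, and it ranked 8292 in replicate 1 but 110772 in replicate 2, and it was not conservative. Of the 3 BAF genes, the gene of the ATPase thus had the lowest signal, and 29.6% of genes with a site had a lower one.

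Chd1, Setdb1 and Trim28 had 8 sites with signals from 30.4 to 139 and a median of 74.5. Both replicates supported 7 of the 8, beside 3 of 8 at the NuRD genes, 3 of 4 at the BAF genes and 50.4% of all optimal peaks. At Chd1 the sites fell into an upstream group of 3 and a pair inside the gene. The strongest (chr17:15677983-15678123), 26.9 kb upstream, had a signal of 93.6 and ranks of 1981 and 3893 in replicates 1 and 2. The next (chr17:15680356-15680464), 24.5 kb upstream, had 65.9 and ranks of 4922 and 3245. The replicates differed in which of these ranked higher. A weaker one 453 bp from it had a signal of 30.4 and was still found by both.

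Within Chd1 the summits at 42.1 and 43.2 kb downstream had signals of 34.6 and 61.0. The higher was conservative, with ranks of 5079 in replicate 1 and 4106 in replicate 2. The lower was not, with a rank of 9501 in replicate 1 and 17854 in replicate 2. All 5 Chd1 sites had the Chd1 TSS as the nearest protein-coding TSS, and no other such TSS lay in the window.

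The single Setdb1 site (chr3:95370242-95370401) lay 13.1 kb upstream of the TSS, with a signal of 116 and rank 1738, and ranked 1794 in replicate 1 and 2056 in replicate 2. Trim28 had 1 site to either side. The upstream one (chr7:13014516-13014758), 9.53 kb from the TSS, had a signal of 139, a rank of 1244, and ranks of 1481 and 955 in replicates 1 and 2. The downstream one (chr7:13057297-13057660), 33.3 kb away, had a signal of 83.1 and ranks of 4785 and 1395. Both lay nearer to another TSS, the upstream one 4.57 kb from Zbtb45 and the downstream one 2.71 kb from Mzf1, which both encode zinc finger proteins. Trim28 shares its window with 7 other TSSs.

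**Figure D2:**
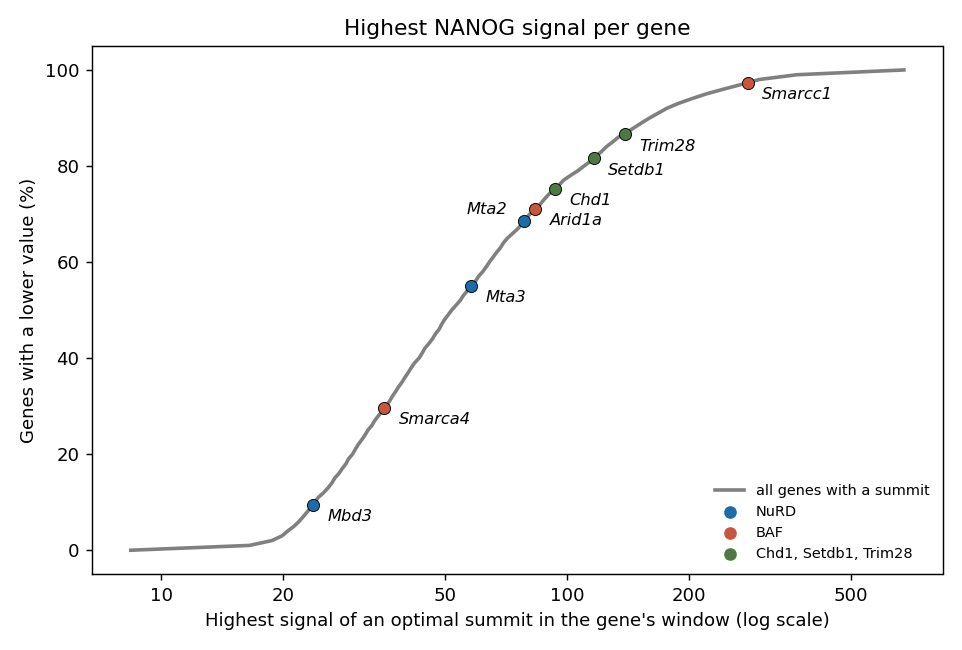
Highest NANOG signal per gene, on a log axis, against the percentage with a lower value among all protein-coding genes with a site; the line is all such genes and the labelled points are the 9 genes with a site. Smarcc1 lies near the top of the range at 279 and Mbd3 near the bottom at 23.7.

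By the highest signal, the order was Smarcc1, Trim28, Setdb1, Chd1, Arid1a, Mta2, Mta3, Smarca4 and Mbd3. With a single combined value per peak, no error tells neighbours in this order apart. The median of the 9 highest signals was 83.6, against 52.0 over all genes with a site. A site above the optimal set's median signal was present at 7 of the 10 genes and at 30.7% of all genes. Of the 20 sites, 2 were in the top 10% of the optimal set, the strongest at Smarcc1 and the upstream one at Trim28.

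Of the 20 sites, 0 were found 1 kb or less from the TSS of any protein-coding gene, a location that held 3.2% of the optimal summits on assembled chromosomes. With 20 sites, 0 cannot be told apart from so small a share. The Mta2 summit, at 1004 bp, lay just past the limit, and the midpoint of its mm9 peak lay 0.94 kb upstream. The median distance of the 20 sites from the assigned gene's TSS was 33.7 kb, with 11 sites upstream and 9 downstream. Inside the named gene lay 8 sites, inside another gene 2, and outside protein-coding genes 10. The assigned gene's TSS was the nearest for 12 sites at 7 genes. For Smarcc1 and Trim28 every site had another gene's TSS nearer. Shares over all optimal summits inside or outside genes, or by nearest TSS, are not given here.

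In the conservative set 15 of the 20 peaks were found, against 56.7% of the whole optimal set, and 13 were supported by both replicates, against 50.4%. Replicate 1 alone supported 4, replicate 2 alone supported 2, and neither supported 1. The 5 that were not conservative had signals of 22.0 to 35.5 with a median of 24.7. The 15 conservative ones had signals of 20.9 to 279 with a median of 78.4, so the ranges overlap. Over the whole optimal set the median was 60.9 for peaks in the conservative set and 27.3 for the others. By gene, 7 of the 10 had a conservative site, and 33.7% of all genes did. Mbd3 and Smarca4 had an optimal site only. A region among the highest 15891 of replicate 1 was present at 9 of the 10 genes against 48.5% of all genes, and of replicate 2 at 9 of 10 against 54.0%, with Chd4 missing from both. At Mbd3 and Smarca4 no such region of replicate 2 overlapped the optimal peak. The best region of replicate 2 lay 6.07 kb upstream of the Mbd3 TSS, at rank 13556. At Smarca4 it lay 9.57 kb downstream of the TSS, at rank 10050.

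**Figure D3:**
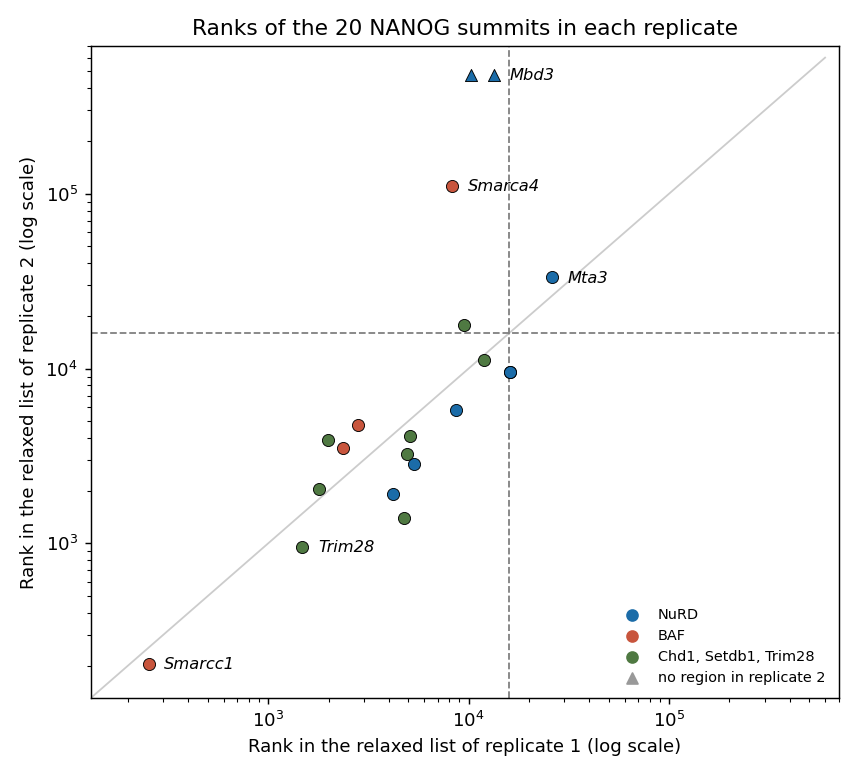
Rank of the region overlapping each of the 20 optimal peaks in replicate 1 and in replicate 2, both on log axes, coloured by gene group; the grey diagonal marks equal ranks, broken lines mark rank 15891, and the 2 peaks without a region in replicate 2 are triangles at the edge. Most sites lie inside both limits, with Smarca4 at 8292 and 110772 far from the diagonal; the 2 overlapping Mta3 peaks share 1 point.

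An older set of peak lists on mm9, called for each replicate and for the series, gave a second view of the same libraries. It reports an enrichment ratio per peak over a reference that is not stated. The series list had 20 peaks at 8 of the 10 genes, with none at Chd4 or Mbd3. At the same distance from the TSS within 500 bp, 16 of them had an optimal mm10 summit. The other 4 lay near Setdb1 (13.3 kb downstream and 20.1 kb upstream) and Trim28 (7.58 kb upstream and 35.5 kb downstream). The midpoints lay in introns for 8, between genes for 11 and in an exon, of Eml3, for 1, by the mm9 annotation. For this list, the share of all genes with a peak and the shares of all peaks by location are not given here.

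The list of replicate 1 held all 20 of these peaks and that of replicate 2 held 10, at 6 genes. The list of replicate 2 was also shorter as a whole, with 6618 peaks against 13341 in the series list. Shares over all series peaks are not given here. The Smarcc1 peak inside the gene had the highest enrichment of the 20 in either replicate, 70.9 in replicate 1 and 35.3 in replicate 2. The upstream Trim28 peak had 34.3 and 16.0. The Setdb1 peak 13.1 kb upstream had 27.6 in replicate 1 and 11.0 in replicate 2. The Chd1 peaks 26.9 and 24.4 kb upstream had 29.6 and 22.8 in replicate 1, and 8.12 and 10.5 in replicate 2. Their order differed between the replicates, as it did on mm10.

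Arid1a, with 23.4 in replicate 1, and Smarca4, with 12.0, had no peak in replicate 2. Enrichment was higher in replicate 1 for all 10 shared peaks, as it was for 98.9% of all 6533 peaks of replicate 2 that overlap one of replicate 1. The list of replicate 1 held 22082 peaks and that of replicate 2 held 6618. Replicate 1 alone held 4 more peaks at Mbd3, Arid1a, Setdb1 and Trim28, with q-values of 0.252 to 0.558. The Arid1a and Trim28 ones lay 0.83 and 0.85 kb upstream of the TSS.

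**Figure D4:**
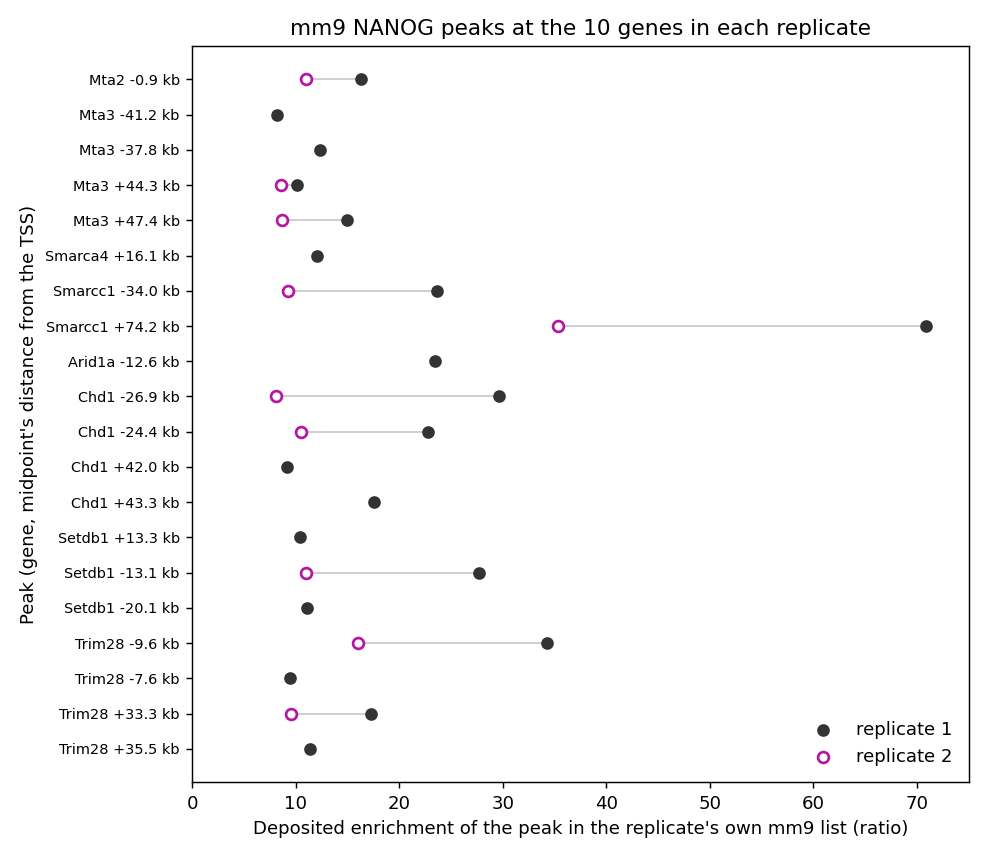
Enrichment ratio of mm9 peaks near the 10 genes in replicate 1 and replicate 2, on a linear axis from 0, for the 20 peaks of the series list, each named by its midpoint's distance from the TSS, and joined by a line where both lists hold the peak. Points of replicate 1 lie to the right of those of replicate 2 for all 10 shared peaks, and the Smarcc1 peak is highest in both at 70.9 and 35.3.

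Windows of 150 bp to either side of the 20 mm9 series peak midpoints were searched on both strands for 6 short words, 1 for NANOG itself and 5 for factors that act beside it in these cells. The SOX word CATTGT was found in 7 of 20, against 31.6% of all 13341 series peaks. The nuclear receptor word AAGGTCA, bound by ESRRB, was found in 5, against 16.9%. The homeodomain word TAATGG of NANOG itself was found in 1, at Smarca4, against 16.1%. The KLF word GGGNGTGG was found in 1, at Trim28, against 12.1%. The octamer ATGCAAAT of OCT factors and the TCF/LEF word CTTTGAT were found in none, against 5.61% and 7.33%.

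At least 1 word was present in 10 of the 20 windows, against 65.2% of all series peaks, and none of the 14 matches overlapped another. In windows of 50 bp to either side the count was 7 of 20, against 34.1% of all series peaks, so the share at the 10 genes was below that of all peaks in the wider window alone. The Smarca4 window, called in replicate 1 alone, held the most words, with SOX, NANOG and ESRRB matches. Both Trim28 peaks upstream of the TSS, at 9.64 and 7.58 kb, held an ESRRB match. The printed Smarcc1 sequence held a SOX match 9 bp from its midpoint, and the Arid1a sequence an ESRRB match beginning 17 bp before it. A match is a word in the window and no more, and the absence of one says only that these letters are not there. The GC content of the windows had a median of 45.2%, against 45.5% over all series peaks.

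Other genes of the same pathways were counted by the same rule. Of 62 with a mapped position, 44 had a site, or 71.0%, against 48.4% of all protein-coding genes, and 6 had 5 or more, against 2.55%. These lists were chosen by function, with earlier results of these data known, and their windows were not matched in length to those of all genes. Among other NuRD genes 8 of 11 had one, or 72.7%. Mbd2, which encodes the methyl-CpG-binding subunit that takes the place of MBD3, had the highest signal of these at 485, 28.0 kb upstream of the TSS. It was followed by the histone chaperone gene Rbbp7 at 76.0 and the deacetylase gene Hdac2 at 49.1. Chd5, Gatad2b and Mta1 had no site.

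Among other BAF genes 15 of 23 had a site, or 65.2%. Arid1b, the paralogue of Arid1a, had 8 sites and a highest signal of 186, followed by Bcl7a at 167 and Arid2, of the PBAF form, at 137. Actl6b, Brd7 and Brd9 were among those without one. Among heterochromatin genes 14 of 18 had a site, or 77.8%. The lysine 9 methyltransferase gene Ehmt1 reached 185, Atf7ip, whose product is a partner of SETDB1, reached 105 with 6 sites, and Trim24, a relative of Trim28, reached 100 with 7. Morc2a, Mphosph8 and Suv39h2 were among those without a site.

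A list of other remodeller genes held 7 of the CHD and ISWI families together with Ino80, Ep400 and Hells, which belong to neither family. A site was present at 4 of the 7 CHD and ISWI genes and at all 3 of the others, or 70.0% of the 10. Chd7 reached a signal of 205 with 5 sites and Chd2 reached 159, while Ep400 reached 158 with a summit inside Ulk1. The CHD gene Chd6 and the ISWI ATPase genes Smarca1 and Smarca5 had none. Chd4 was thus not alone among remodelling ATPase genes in having no site.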

How the data were processed

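NANOG ChIP-seq peak files of 2 biological replicates were used. The genes, the lists of other genes and the words searched were chosen with earlier results of these data known. The authors deposited narrowPeak lists on mm10 (relaxed lists per replicate and pooled, optimal and conservative IDR sets) and broadPeak lists on mm9, per the deposited readme texts. The deposited signal values are the peak caller's, beside a deposited −log10 of the q-value or p-value and a deposited integer score of the IDR step. The deposited mm9 lists hold an enrichment ratio and an untransformed q-value. Aligner, peak caller, IDR threshold and depth are not given in the sources used here.

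Gene positions came from RefSeq (GRCm38.p6) for 21887 protein-coding genes, and 401 without a strand were left out. Strand came from the RefSeq promoter table for 17492 genes and from the mm9 annotation for 3994, among them Mta3 and Chd1. The 2 sources gave the same strand for 14569 of the 14609 genes in both. The optimal set has 39 peaks off assembled chromosomes. Overlap needed 1 bp. Sequence and locations on mm9 came from NCBIM37 with GENCODE annotation, and no coordinate was converted between builds. Protein-coding genes alone were counted as neighbours.

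All 10 genes are named. Of each list of other genes, up to 3 with the highest signal and up to 3 without a site, in alphabetical order, are named, together with the gene of the nearest TSS to each site. Of the other genes, 1 of 63 had no match and was not analysed here. With 1 group there was no test. The alternatives were other peak lists, windows, overlap rules, rank limits and motif windows, and each replicate left out. Assignment of summits to genes and the direction of TSS distances were tested on simulated data. Python 3.11.15, NumPy 2.4.6, pandas 2.3.3 and matplotlib 3.10.9 were used.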

Additional observations from a re-analysis of the deposited data

How the results depend on the processing

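Sites were found at 7 to 10 of the 10 genes over the alternatives. Mta2, Mta3 and Chd1 had one under every alternative for peak list and window, and Chd4 had none except in a window of 100 kb, where it had 2. Mbd3 and Smarca4 had none in the conservative set or in the higher-signal part of the optimal set, and Mbd3 none in the mm9 series list. Arid1a and Setdb1 had none within the gene body or 10 kb, and Smarcc1 and Trim28 had none when each summit went to its nearest TSS alone. The 20 sites became 10 in the gene body or 10 kb, 12 with the nearest TSS alone and 12 in the higher-signal part of the optimal set. Of the other 62 genes, the 44 with a site became 27 in the gene body or 10 kb and 28 with the nearest TSS alone. Shares of all genes under the 10 kb, 100 kb and nearest-TSS rules are not given here. The counts under those 3 rules thus have no background to be read against. The 20 sites ranged from 20 to 28 with the highest regions of a single replicate in place of the optimal set, the higher number without replicate 1. Mta3, with 6 sites, had 3 without replicate 2 and 4 in the conservative, pooled and mm9 series lists. It also had 3 in the gene body or 10 kb, and 2 with the nearest TSS alone and in the higher-signal part. Chd1, with 5, had 4 in the conservative set, without replicate 1 and in the mm9 series list. Without replicate 1 Arid1a and Setdb1 went from 1 to 3, Mta2 and Smarca4 from 1 to 2, and Smarcc1 from 2 to 4, and without replicate 2 Trim28 went from 2 to 4. Sites supported by both replicates numbered 12 and 13 under the 2 other overlap rules, and 12 with the rank limit set to the size of the conservative set. With no rank limit, over the whole relaxed lists, which include background, they numbered 18. Shares over all optimal peaks under these rules are not given here. The 10 mm9 windows with a word became 4 of 10 without replicate 1, against 66.4% of all peaks of replicate 2, and 13 of 24 without replicate 2, against 63.5% of all peaks of replicate 1. Fewer or more peaks were searched there. In windows of 50 bp to either side the count was 7 of 20, against 34.1% of all series peaks. Counts for single genes stayed within 1.5 times in 71 of 100 combinations of gene and alternative. These include Chd4 where it stayed at 0 and genes that stayed at 1, so the share says little about genes with several sites. No paired analysis was possible because there was 1 group. Depth is unknown, so an absent site cannot be read as absent binding.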
